A study of Arabidopsis thaliana with 9 samples.

Results

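The genes described here encode proteins that loosen, cut or join the primary cell wall of Arabidopsis thaliana: 19 expansin genes, 26 xyloglucan genes and 80 pectin genes. They are all 125 of the 18861 genes listed in at least 1 of the deposited tables whose description holds the word expansin, xyloglucan or pectin, and no gene belongs to more than 1 family. The expansins comprised 13 alpha-expansins (EXPA), 2 beta-expansins (EXPB) and 4 expansin-like genes (EXLA and EXLB). The xyloglucan genes comprised 21 xyloglucan endotransglucosylase/hydrolases (XTH), 3 xyloglucan xylosyltransferases (XXT) and 2 further genes, AXY9 and XEG113. The pectin genes comprised 9 genes with a pectin methylesterase (PME) name, 12 genes of the invertase and PME inhibitor superfamily with a coding length of 1000 bases or more, 13 of that superfamily with a shorter coding length, 10 pectin acetylesterases, 33 pectin lyase-like genes and 3 genes described as pectinesterase with a domain of unknown function. A long coding sequence has room for an inhibitor-like region followed by a PME domain, and a short one for the inhibitor alone. The 12 long genes are therefore counted with the PME enzymes and the 13 short ones as inhibitors, a division by length that was set after the coding lengths were seen.

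Polyadenylated RNA was sequenced from 3 groups of 3 libraries, which the labels call biological replicates. Leaf is the rosette leaf of wild-type Col-0 plants, which had spent 1 week under continuous light on Murashige and Skoog plates and then 2 weeks on soil with 16 h of light. Wild-type callus is tissue raised from Col-0 cotyledons. Its Gamborg B5 medium held an auxin, 2,4-D at 2.2 µM, and a cytokinin, kinetin at 0.46 µM. Cotyledons were cut after 7 days, light was followed by dark, and callus was analysed at 6 to 8 weeks. The emf2 callus was raised in the same way from emf2 cotyledons (allele emf2-1 per the file headers). The EMF2 protein belongs to a Polycomb complex that methylates histone H3 and keeps genes silent. Organ, hormones, light and age all differ between callus and leaf and cannot be told apart.

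The primary wall is a net of cellulose microfibrils bound by xyloglucan and set in a pectin gel. Alpha-expansins loosen the contacts between these polymers at acid pH without cutting them, which lets a wall yield to turgor. XTH enzymes cut a xyloglucan chain and either rejoin its end to another chain or release it by hydrolysis, while XXT enzymes add the xylose side chains during synthesis in the Golgi. Pectin is secreted in a methylesterified form. PMEs remove the methyl groups in the wall, PME inhibitors (PMEI) block them, acetylesterases remove acetyl groups, and pectate lyases and polygalacturonases, which share the pectin lyase fold, cut the backbone.

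The sequences upstream of 6 genes are shown because these genes had, within their family, the largest difference in each direction between wild-type callus and leaf. Each run is the 250 bases before the annotated gene start, 5′ to 3′ on the strand of the gene, from the RefSeq TAIR10.1 assembly. Capitals mark TGTCTC, the core of an auxin response element, or GAGACA, the same letters read on the other strand. EXPA4 lies at chr2:16545747-16545996 (minus strand), EXPA5 at chr3:11013452-11013701 (minus strand), XTH11 at chr3:18006848-18007097 (plus strand), XTH6 at chr5:26298478-26298727 (plus strand), AT1G14890 at chr1:5136624-5136873 (plus strand) and AT3G10720 at chr3:3357755-3358004 (minus strand), where these coordinates are those of the sequence shown.
EXPA4: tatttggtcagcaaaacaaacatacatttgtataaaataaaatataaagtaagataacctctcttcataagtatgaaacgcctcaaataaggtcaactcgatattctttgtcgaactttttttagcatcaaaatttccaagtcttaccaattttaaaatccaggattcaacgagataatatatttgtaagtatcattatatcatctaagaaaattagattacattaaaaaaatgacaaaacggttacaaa
EXPA5: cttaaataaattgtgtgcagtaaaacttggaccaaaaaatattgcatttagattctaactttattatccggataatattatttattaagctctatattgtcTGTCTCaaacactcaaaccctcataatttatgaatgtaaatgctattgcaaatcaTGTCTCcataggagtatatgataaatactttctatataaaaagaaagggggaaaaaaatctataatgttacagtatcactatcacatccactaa
XTH11: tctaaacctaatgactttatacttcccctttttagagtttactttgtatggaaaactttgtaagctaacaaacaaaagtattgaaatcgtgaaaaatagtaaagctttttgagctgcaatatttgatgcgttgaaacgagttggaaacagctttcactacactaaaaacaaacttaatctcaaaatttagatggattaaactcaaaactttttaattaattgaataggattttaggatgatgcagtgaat
XTH6: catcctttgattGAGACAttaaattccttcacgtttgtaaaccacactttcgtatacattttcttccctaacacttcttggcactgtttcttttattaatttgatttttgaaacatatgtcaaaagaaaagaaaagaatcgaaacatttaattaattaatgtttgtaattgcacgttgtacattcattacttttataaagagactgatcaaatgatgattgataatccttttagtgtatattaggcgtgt
AT1G14890: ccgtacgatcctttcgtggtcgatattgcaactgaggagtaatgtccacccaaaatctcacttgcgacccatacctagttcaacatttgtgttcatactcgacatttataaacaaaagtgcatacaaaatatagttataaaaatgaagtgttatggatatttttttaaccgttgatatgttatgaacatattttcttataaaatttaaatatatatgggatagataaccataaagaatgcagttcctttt
AT3G10720: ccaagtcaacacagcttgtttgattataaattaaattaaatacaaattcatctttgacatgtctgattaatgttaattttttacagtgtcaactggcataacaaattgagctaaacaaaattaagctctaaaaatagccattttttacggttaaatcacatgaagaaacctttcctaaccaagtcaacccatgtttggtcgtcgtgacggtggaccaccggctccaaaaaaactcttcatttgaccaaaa
EXPA4, XTH11 and AT1G14890 were higher in callus and EXPA5, XTH6 and AT3G10720 were higher in leaf. TGTCTC occurred 2 times upstream of EXPA5 and 1 time upstream of XTH6, and in none of the other sequences shown.

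On either strand and in the wider window from 250 bases before to 50 bases after the gene start, TGTCTC occurred in 4 of the 24 members that passed as higher in wild-type callus (16.7%), in 12 of the 53 that passed as lower (22.6%) and in 3895 of 27438 protein-coding genes (14.2%). By family it occurred in 5 of 19 expansin, 2 of 26 xyloglucan and 12 of 80 pectin genes. A related auxin response element, TGTCGG, occurred in 8.33% of the higher members, 3.77% of the lower members and 5.12% of all genes. CACGTG, the G-box, occurred in 4.17%, 7.55% and 7.68%, and CATGCA, the RY element, in 4.17%, 13.2% and 9.72%. TGTCTC and TGTCGG share their first letters and were searched apart, and a match is a description of the sequence.

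RPKM scales reads by the length of the gene and by the library, so levels can be set beside each other between genes. The tables list a gene where its group mean was above 1 RPKM, and a gene missing from a table had a mean of at most 1 RPKM there. Reads recovered from the values came to 39459678 to 53190936 per library over the listed genes, and a member had 15 or more reads in every library that lists it (median 760). The deposited scaling is not that of these totals. Rescaling each library to its total would raise callus over leaf by 0.92 log2 units in wild-type callus and by 0.95 in emf2 callus. The median log2 fold change of all genes would then move from 0.06 to 0.83 for wild-type callus against leaf. Leaf markers summed to 38773 to 61230 RPKM in the leaf libraries and to 4.61 to 41.0 in the callus libraries, and 5 of 5 were in the leaf table, 4 of 5 in that of wild-type callus and 3 of 5 in that of emf2 callus. Of 5 genes of root founder cells, which callus is known to express, 4 were listed in wild-type callus, with 5 for emf2 callus and 0 for leaf. EMF2 (AT5G51230) was read in every library, with 6.78 to 7.55 RPKM over the wild-type callus libraries, 13.03 to 16.3 over those of emf2 callus and 5.5 to 29.6 over those of leaf. What the emf2 allele does to the transcript is not stated in the labels, and its level therefore does not check the genotype. The leaf libraries differed in stress genes: heat shock genes came to 998 RPKM in replicate 2 and at most to 38.4 in the others, and defence genes to 3392 in replicate 3 and at most to 661 in the others.

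Of the 125 members, 110 were listed in leaf, 94 in wild-type callus, with 91 for emf2 callus, and 79 in all 3. Leaf alone listed 28 members (22.4%, against 9.0% of all genes), namely 4 expansin, 5 xyloglucan and 19 pectin genes. Callus of either genotype without leaf listed 15 (12%, against 11.49% of all genes), namely 1 expansin, 3 xyloglucan and 11 pectin genes. In each family and tissue a few genes made up much of the level. EXPA4 led the summed expansin level with 37.2% to 46.4% in the callus libraries other than wild-type replicate 3, where EXPA1 led with 35.5%. XTH24 gave 38.3% to 54.7% of the summed xyloglucan level in the 6 callus libraries. The pectin family was spread more widely, with its highest member at 12% to 24.3% of the sum in any library.

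**Figure D1:**
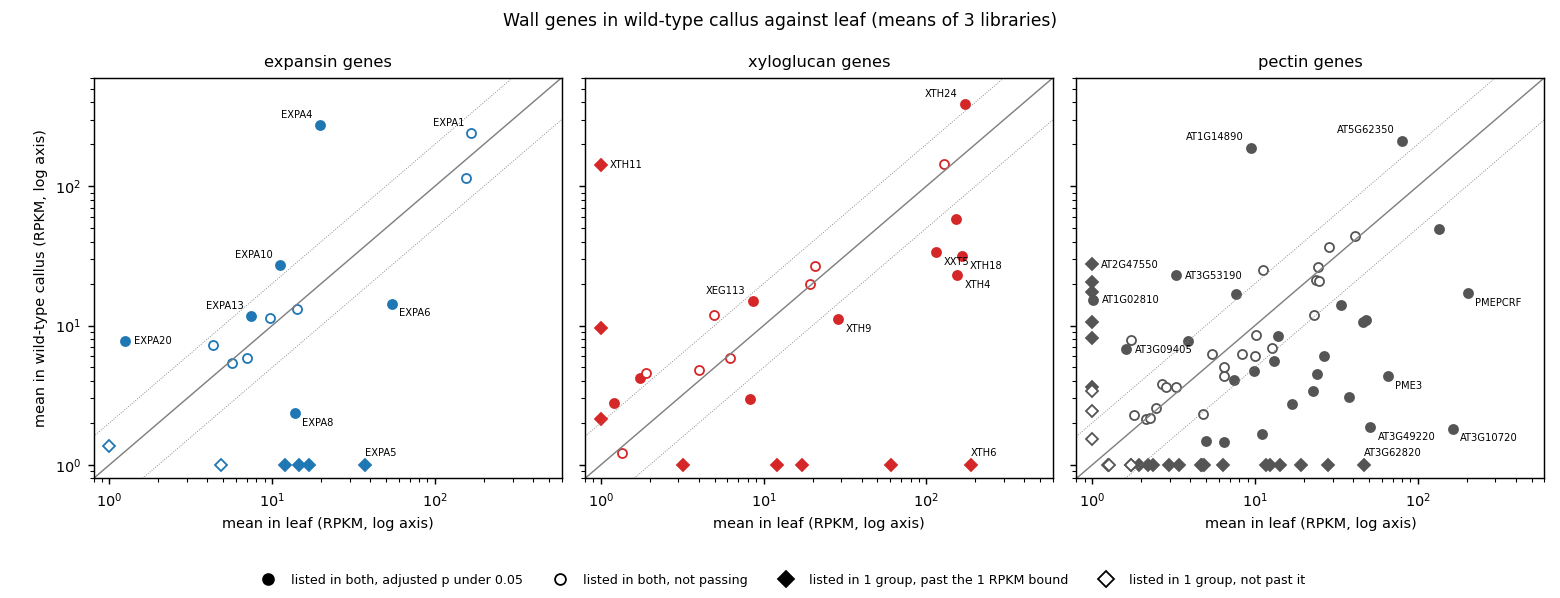
Mean level of each wall gene in wild-type callus (vertical axis) against leaf (horizontal axis), in RPKM on log axes, with 1 panel per family; the solid line marks equal means, the dotted lines a 2-fold difference, and diamonds at 1 RPKM are genes missing from that table. EXPA4, XTH11 and AT1G14890 lie far above the line, and EXPA5, XTH6 and AT3G10720 far below it.

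Wild-type callus was first compared with leaf. A gene listed in both passed at an adjusted p under 0.05 in limma's test on log2(RPKM + 1), with Benjamini-Hochberg adjustment over all 14780 genes listed in both, and fold changes below are on that scale, which understates changes of low genes. Of all genes 65.4% passed, 33.6% higher and 31.8% lower in callus. With scaling to the library totals 9085 of the 14780 genes were higher and 2554 lower, which is the background for counts at that scaling below. Both tissues listed 81 members, of which 43 (53.1%) passed, with 15 of them higher and 28 lower. A gene listed in 1 of the tissues was compared with the highest level that its absence allows, a mean of 1 RPKM, so its difference is a bound. Such genes were chosen by the tables for being high in 1 tissue, and 69.4% of all genes listed for wild-type callus and not leaf and 84.3% of those listed for leaf and not wild-type callus passed it. The largest rises and falls named below were picked among passing genes whose groups did not overlap. Their lack of overlap therefore follows from that choice. Fewer cells of a type and less RNA per cell cannot be told apart in these bulk samples.

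The expansin of highest level varied among libraries. EXPA1 led in leaf replicate 1 and in wild-type callus replicate 3, EXLA1 in leaf replicates 2 and 3, and EXPA4 in the other callus libraries. Of the 13 expansin genes listed in both, EXPA4, EXPA20, EXPA10 and EXPA13 rose in callus, EXPA8 and EXPA6 fell and 7 did not pass, while under scaling to the library totals 8 rose and 1 fell. The median log2 fold change was 0.17, and 0.11 relative to the median of all genes. Of the 5 expansins listed for leaf and not wild-type callus, 4 passed the bound: EXPA5, EXLB1, EXPA11 and EXPA16. EXPA7, known as a root hair expansin, was the only one listed for wild-type callus and not leaf, and it did not pass.

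EXPA4 was at 25.2, 18.7 and 15.0 RPKM over leaf replicates 1 to 3, at 262, 282 and 281 in wild-type callus, with 339.9, 211 and 191 for emf2 callus. Every callus library was above every leaf library, and the wild-type callus libraries lay close together. The rise in wild-type callus passed (log2 fold change 3.77, SE 0.26, adjusted p = 6.50e-06). EXPA1, the alpha-expansin with the next highest mean in wild-type callus, was at 332, 64.1 and 106 in leaf and 173, 258 and 287 in wild-type callus. Leaf replicate 1 was above every callus library and the other leaf libraries were below them, and the difference did not pass (log2 fold change 0.83, SE 0.53, adjusted p = 0.198). Without leaf replicate 1 it passed, at a log2 fold change of 1.49 (adjusted p = 0.00493), and so it did with scaling to the library totals (1.74, adjusted p = 0.0133).

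EXPA10, which is known to promote leaf growth, was at 16.7, 9.75 and 7.20 in leaf and 20.5, 28.0 and 32.6 in wild-type callus (log2 fold change 1.25, SE 0.28, adjusted p = 0.00438). Its groups did not overlap, and the rise was smaller than that of EXPA4. EXPA13 was at 8.68, 8.23 and 5.21 in leaf and 11.3, 10.7 and 13.04 in callus, again without overlap (log2 fold change 0.62, SE 0.18, adjusted p = 0.0167). Without wild-type callus replicate 3 it no longer passed (adjusted p = 0.0548). EXPA20 was at 1.37, 1.41 and 0.962 in leaf and 5.90, 10.2 and 7.20 in callus (log2 fold change 1.94, SE 0.21, adjusted p = 8.43e-05). A gene on the other strand covers 87.1% of its span, and the library kit does not mark strand, so reads of this pair cannot be told apart.

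EXPA5, an alpha-expansin known to act downstream of brassinosteroids, was at 52.2, 41.1 and 18.4 RPKM in the leaf libraries and was listed in neither callus. Its leaf level lay far above the bound of 1 RPKM (-4.14 against the bound, SE 0.32, adjusted p = 0.000402). EXPA6 was at 75.8, 53.8 and 34.2 in leaf and 12.3, 22.1 and 8.58 in wild-type callus, and every leaf library was above every callus library (log2 fold change -1.88, SE 0.46, adjusted p = 0.00657). Its fall did not pass with scaling to the library totals (log2 fold change -0.996, adjusted p = 0.0734). EXPA8 was at 22.0, 8.25 and 11.01 in leaf and 1.39, 1.70 and 3.94 in wild-type callus (log2 fold change -2.11, SE 0.42, adjusted p = 0.00485), and was absent from the emf2 table. EXPA11 was at 26.2, 9.64 and 7.91 in leaf alone, highest in replicate 1 (-2.78 against the bound, SE 0.35, adjusted p = 0.00223).

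The expansin-like genes, for which no wall-loosening activity is established, gave no call between tissues where both listed them. EXLA1 was at 77.7, 157 and 229 in leaf and 133, 73.8 and 135 in wild-type callus, with overlapping groups and the highest leaf level in replicate 3, where the defence genes were highest too; their part in this was not tested. EXLB1 was listed for leaf at 18.4, 18.6 and 13.8, was missing from wild-type callus (-3.15 against the bound, SE 0.35, adjusted p = 0.000263) and was listed for emf2 callus at 1.86, 4.46 and 0.335. EXPA7 was at 0.317, 3.32 and 0.471 in wild-type callus, where replicate 2 alone was above 1 RPKM. Root hair markers, 2 of 5 listed, summed to 10.2, 45.1 and 20.4 RPKM in the same libraries, were highest in that replicate and were listed at 0 of 5 in leaf; their part was not tested. The beta-expansin EXPB3 was at 6.14, 8.55 and 2.34 in leaf and 8.02, 4.81 and 3.38 in wild-type callus, with overlapping groups (log2 fold change 0.00, SE 0.48, adjusted p = 0.994), and EXPB1 was listed for leaf alone at 6.56, 7.10 and 0.923 and did not pass the bound (adjusted p = 0.0626).

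**Figure D2:**
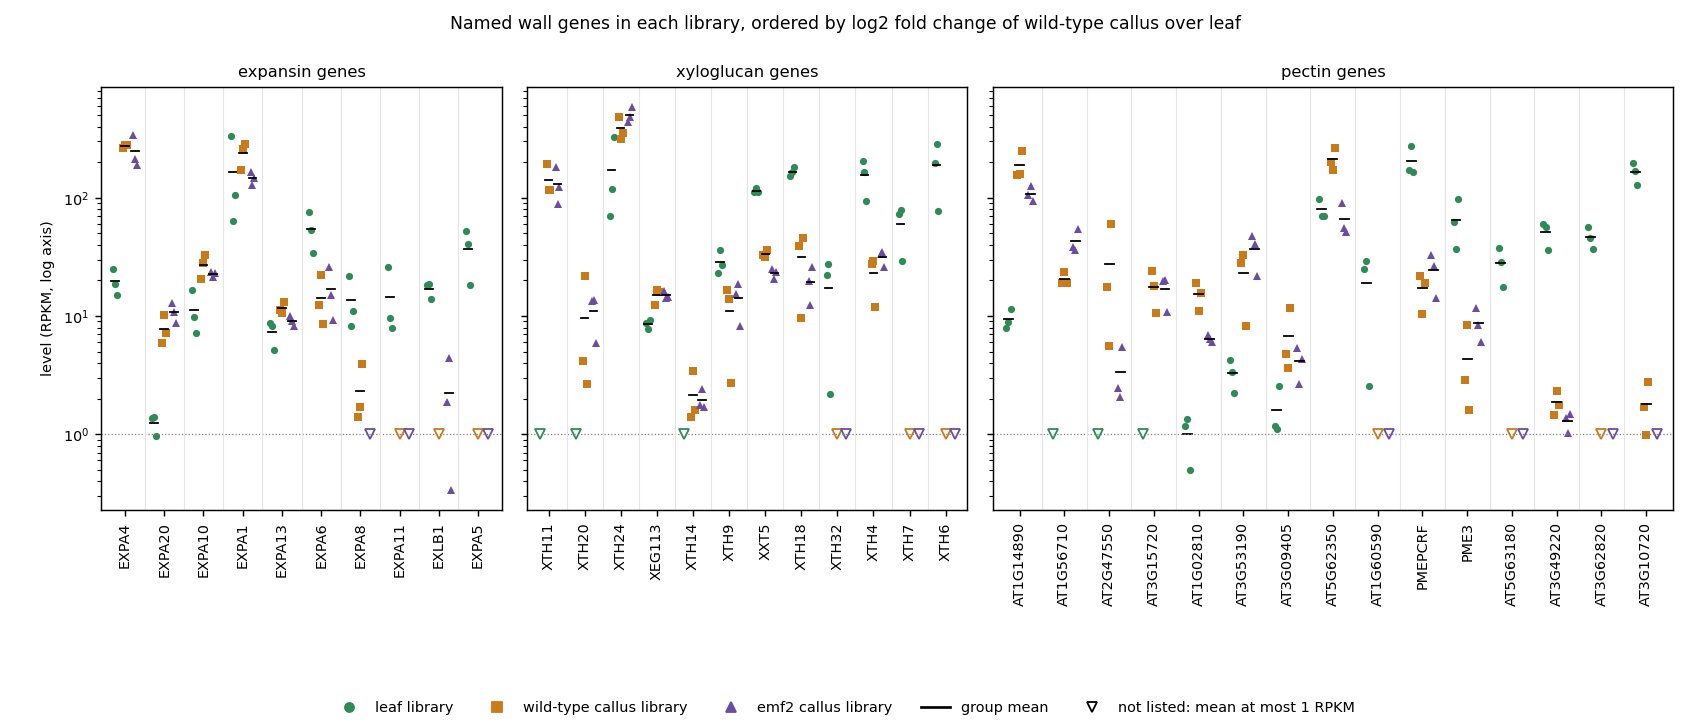
Level of each named wall gene in every library, in RPKM on a log axis, ordered within each family by the log2 fold change of wild-type callus over leaf; points are libraries, short bars are means of 3 libraries, and open triangles mark a group that does not list the gene (mean at most 1 RPKM). In the expansin panel EXPA4 sits at 191 to 340 RPKM in the callus libraries and at 15.0 to 25.2 in leaf.

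The xyloglucan genes changed in both directions, and the XTH genes at the top of the list differed between tissues. Of 18 xyloglucan genes listed in both, XTH24, XTH5, XXT4 and XEG113 rose, XTH4, XTH9, XTH16, XTH18, EXGT-A3 and XXT5 fell and 8 did not pass, whereas scaling to the library totals gave 8 higher and 4 lower. The median log2 fold change was 0.17. Of the 3 listed for callus alone (XTH11, XTH14 and XTH20) all passed the bound, and so did all 5 listed for leaf alone (XTH6, XTH7, XTH25, XTH32 and XTH33).

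XTH24 had the highest level of any member in callus. It was at 487, 317 and 356 RPKM in wild-type callus, with 437, 487 and 593 for emf2 callus and 70.4, 120.0 and 326 for leaf. Leaf replicate 3 lay within the range of wild-type callus, so the groups overlapped, and the rise passed narrowly (log2 fold change 1.43, SE 0.50, adjusted p = 0.0319). Without leaf replicate 1 or 2, or without wild-type callus replicate 1 or 3, it did not pass (adjusted p = 0.0997, 0.0906, 0.0958 and 0.0615). XTH11 was at 195, 117 and 116 in wild-type callus, with 184, 88.3 and 123 for emf2 callus and was missing from the leaf table (6.12 against the bound, SE 0.24, adjusted p = 6.26e-06). All 6 callus libraries read it at 88.3 RPKM or more. XTH20 was at 4.13, 22.0 and 2.64 in wild-type callus, far higher in replicate 2 than in the others (1.92 against the bound, SE 0.51, adjusted p = 0.0133). XTH14 was at 1.40, 3.44 and 1.595, also highest in replicate 2, and did not pass without that library (adjusted p = 0.0697).

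XTH6 was the xyloglucan gene of highest mean in leaf, at 199, 288 and 78.0 RPKM, and neither callus listed it (-6.37 against the bound, SE 0.40, adjusted p = 0.000216). XTH7 was at 72.4, 79.2 and 29.5 and XTH32 at 22.1, 27.4 and 2.20, each for leaf alone. All 3 of these were lowest in leaf replicate 3. Among the leaf libraries its defence sum was highest and its sums of leaf, xylem and epidermis markers were lowest. The part of these differences was not tested. The bound was passed by XTH7 (adjusted p = 0.000259) and by XTH32 (adjusted p = 0.0235). XTH32 did not pass without leaf replicate 1 or 2 (adjusted p = 0.107 and 0.105).

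XTH4 was at 206, 166 and 93.6 in leaf and 27.6, 29.5 and 11.9 in wild-type callus (log2 fold change -2.73, SE 0.39, adjusted p = 0.000398). XTH18 was at 154, 164 and 181 in leaf and 39.4, 9.57 and 45.4 in callus (log2 fold change -2.62, SE 0.53, adjusted p = 0.00260). In both genes every leaf library was above every callus library, and the leaf libraries of XTH18 differed little. XTH9 was at 23.1, 36.3 and 27.0 in leaf and 16.6, 13.9 and 2.70 in callus, with the lowest value in callus replicate 3 (log2 fold change -1.56, SE 0.57, adjusted p = 0.0390). It kept its direction, and its fall passed neither with quantile normalization nor with scaling to the library totals (adjusted p = 0.0957 and 0.309), nor without any 1 of the leaf libraries or without wild-type callus replicate 3 (adjusted p = 0.0593 to 0.112). XTR6, of the highest mean after XTH24 in wild-type callus, was at 45.2, 124 and 215 in leaf and 172, 62.8 and 196 in callus and did not pass, with overlapping groups.

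Among the genes that build or modify the polymer rather than cut it, XXT5, a Golgi xylosyltransferase, was at 111, 122 and 113 in leaf, 33.0, 31.8 and 36.2 in wild-type callus, with 25.3, 20.7 and 23.7 for emf2 callus. Its 3 groups were tight and did not overlap, and the fall from leaf to wild-type callus passed (log2 fold change -1.75, SE 0.12, adjusted p = 7.91e-06). XXT4, a close relative at a far lower level, rose from 1.76, 1.05 and 2.39 to 4.14, 4.93 and 3.61 (log2 fold change 0.96, SE 0.20, adjusted p = 0.00301), and XXT3 was near 1 RPKM in every group. XEG113, at 8.76, 7.81 and 9.29 in leaf and 12.4, 16.7 and 16.0 in callus, rose (log2 fold change 0.73, SE 0.14, adjusted p = 0.00191). It is known as an arabinosyltransferase of extensin proteins and carries xyloglucan in its name because the mutant was found by its growth on xyloglucanase. AXY9, needed for acetylation of xyloglucan, was at 4.70, 3.80 and 3.46 and 5.24, 5.01 and 4.21 and did not pass.

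The pectin genes that passed were lower in callus more often than higher at the deposited scaling. Of the 50 that both tissues list 7 rose, 20 fell and 23 did not pass, but with scaling to the library totals 23 rose and 14 fell. The median log2 fold change was -0.34, and relative to the median of all genes it was -0.41 at the deposited scaling and -0.39 at the other. Without leaf replicate 3, 11 rose and 23 fell. Of 19 pectin genes listed for leaf and not wild-type callus 16 passed the bound, and of 9 listed for wild-type callus and not leaf 6 passed.

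The level of PME enzymes was lower in callus than in leaf. Of the 13 listed in both, 1 rose (AT1G02810) and 7 fell, at a median of -1.44 on the log2 scale, and with scaling to the library totals 4 rose and 7 fell, with a median of -0.53. Their levels summed to 712, 754 and 685 RPKM over the leaf libraries, 171, 153 and 218 in wild-type callus, with 166, 137 and 162 for emf2 callus. The leaf sums lay above every callus sum, and they did so with scaling to the library totals as well, at 448 to 497 in leaf and 193 to 254 in wild-type callus. Leaf listed 13 short inhibitor genes and each callus 9. Their sums were 285, 249 and 214 in leaf, 419.5, 385 and 567 in wild-type callus, with 247, 229.8 and 196 for emf2 callus. The inhibitor sum was highest in wild-type callus at either scaling. At the deposited scaling AT5G62350 gave 44.4% to 47.8% of it there, and AT1G14890 was at 157, 159.7 and 249.7 RPKM. The median listed inhibitor was at 10.8, 8.89 and 11.4 in leaf and 12.3, 8.75 and 6.55 in wild-type callus. The sums of leaf and emf2 callus overlapped at the deposited scaling. With scaling to the library totals the sums of emf2 callus, at 236 to 312, lay above those of leaf, at 149 to 179.

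AT3G10720, a long gene of the inhibitor superfamily, was at 196, 168 and 128 RPKM in the leaf libraries and 1.70, 0.991 and 2.76 in wild-type callus, and the emf2 table did not list it. The difference was the largest of any member listed in both tissues (log2 fold change -5.90, SE 0.28, adjusted p = 7.99e-06). AT3G49220, of the same kind, fell from 60.0, 57.2 and 36.4 to 1.47, 2.33 and 1.78 (log2 fold change -4.17, SE 0.21, adjusted p = 1.40e-06). Neither gene's groups came near each other. PMEPCRF, the pectin gene of highest mean in leaf, was at 171, 275 and 165 in leaf and 22.0, 10.4 and 19.0 in wild-type callus (log2 fold change -3.52, SE 0.38, adjusted p = 8.02e-05). PME3 fell from 62.2, 37.0 and 97.5 to 2.89, 8.44 and 1.62 (log2 fold change -3.76, SE 0.51, adjusted p = 0.000300), and PME1, still among the higher pectin genes of callus, from 136, 126 and 142 to 48.5, 54.2 and 44.5 (log2 fold change -1.44, SE 0.14, adjusted p = 4.87e-05). Every leaf library was above every callus library in each of these genes, which the choice of genes required of all but PME1.

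Other PMEs went the other way or varied within a group. AT1G02810 was at 1.18, 1.36 and 0.501 in leaf and 18.9, 11.1 and 15.8 in wild-type callus (log2 fold change 3.01, SE 0.22, adjusted p = 1.01e-05), the only one of the 13 to rise. AT2G47550 was listed for callus alone, at 17.8, 5.63 and 59.6 in wild-type callus, with 2.48, 2.06 and 5.52 for emf2 callus (for wild-type callus 3.29 against the bound, SE 0.56, adjusted p = 0.00191), and its wild-type libraries spread widely. PME17, which is known to respond to pathogens, was at 0.477, 4.43 and 28.9 in leaf and 22.3, 15.8 and 37.4 in wild-type callus. Its leaf level was highest in replicate 3, which has the highest defence sum, and the difference did not pass with that library (log2 fold change 1.99, SE 0.96, adjusted p = 0.0991) and passed without it. The part of the defence state was not tested. PME5, known from organ formation at the shoot apex, was at 2.00, 1.78 and 2.02 and PME61 at 4.62, 4.64 and 4.81, both for leaf alone. Both passed the bound, but PME5 did not with scaling to the library totals.

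Inhibitor genes changed in both directions. AT1G14890 was at 7.98, 8.89 and 11.4 RPKM in the leaf libraries and 157, 159.7 and 249.7 in wild-type callus, every callus library lying far above leaf (log2 fold change 4.17, SE 0.22, adjusted p = 1.89e-06). AT5G62350 was at 98.2, 70.6 and 70.6 in leaf and 201, 171 and 266 in wild-type callus, again without overlap (log2 fold change 1.40, SE 0.27, adjusted p = 0.00211). AT3G62820 was at 56.6, 46.1 and 36.9 and listed for leaf alone (-4.55 against the bound, SE 0.16, adjusted p = 3.84e-05). Of the 9 inhibitors listed in both, 2 rose and 3 fell (with scaling to the library totals 6 rose and 0 fell), and all 4 listed for leaf alone passed the bound. PMEI2, known from pollen, was near 2 RPKM and did not pass (adjusted p = 0.885).

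Of the 33 pectin lyase-like genes, 17 were listed in both tissues, and 2 of these rose and 8 fell (5 and 5 with scaling to the library totals). AT3G53190 was at 4.28, 3.36 and 2.22 in leaf and 27.9, 32.8 and 8.22 in wild-type callus, lowest in callus replicate 3 and still without overlap (log2 fold change 2.31, SE 0.50, adjusted p = 0.00393). AT1G56710 was at 18.9, 23.8 and 18.9 in wild-type callus, with 38.2, 36.0 and 54.1 for emf2 callus (3.42 against the bound, SE 0.14, adjusted p = 7.19e-06), and AT3G15720 was at 24.0, 17.9 and 10.7 in wild-type callus (3.14 against the bound, SE 0.25, adjusted p = 6.74e-05); leaf listed neither. AT1G04680 fell from 48.8, 46.6 and 18.3 to 3.07, 1.80 and 4.39 (log2 fold change -3.18, SE 0.43, adjusted p = 0.000289). AT5G63180 was at 37.7, 28.6 and 17.7 and AT1G60590 at 25.3, 29.5 and 2.57, both in leaf alone. The latter was low in leaf replicate 3 and did not pass the bound without leaf replicate 1 or 2 (adjusted p = 0.092 and 0.0913). AT4G24780, one of the highest of these genes, was at 71.0, 33.4 and 19.3 in leaf and 69.3, 33.8 and 28.3 in callus, with groups that overlapped throughout.

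Of the 9 pectin acetylesterases listed in both tissues 2 rose and 2 fell (6 and 2 with scaling to the library totals). AT2G46930 rose from 8.72, 8.90 and 5.37 to 16.1, 14.8 and 19.4 (log2 fold change 1.06, SE 0.19, adjusted p = 0.00140), and AT3G09405 rose from 1.17, 1.11 and 2.57 to 4.77, 3.64 and 11.8 (log2 fold change 1.46, SE 0.40, adjusted p = 0.0121). AT4G19410 fell from 61.7, 39.9 and 42.4 to 13.2, 9.64 and 10.3 and its neighbour AT4G19420 from 19.9, 17.58 and 34.6 to 4.97, 3.71 and 4.68. None of these 4 had overlapping groups, which the choice of AT3G09405 required, and the share of all genes without overlap was not counted. PAE9 was listed for leaf alone, at 1.83, 1.47 and 1.88, and passed the bound, but did not with scaling to the library totals. Of the 3 genes described as pectinesterase with a domain of unknown function, whose kind the description leaves unclear, AT5G66670 was listed for callus alone at 9.59, 10.5 and 4.46 in wild-type callus and passed the bound (adjusted p = 0.000163).

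**Figure D3:**
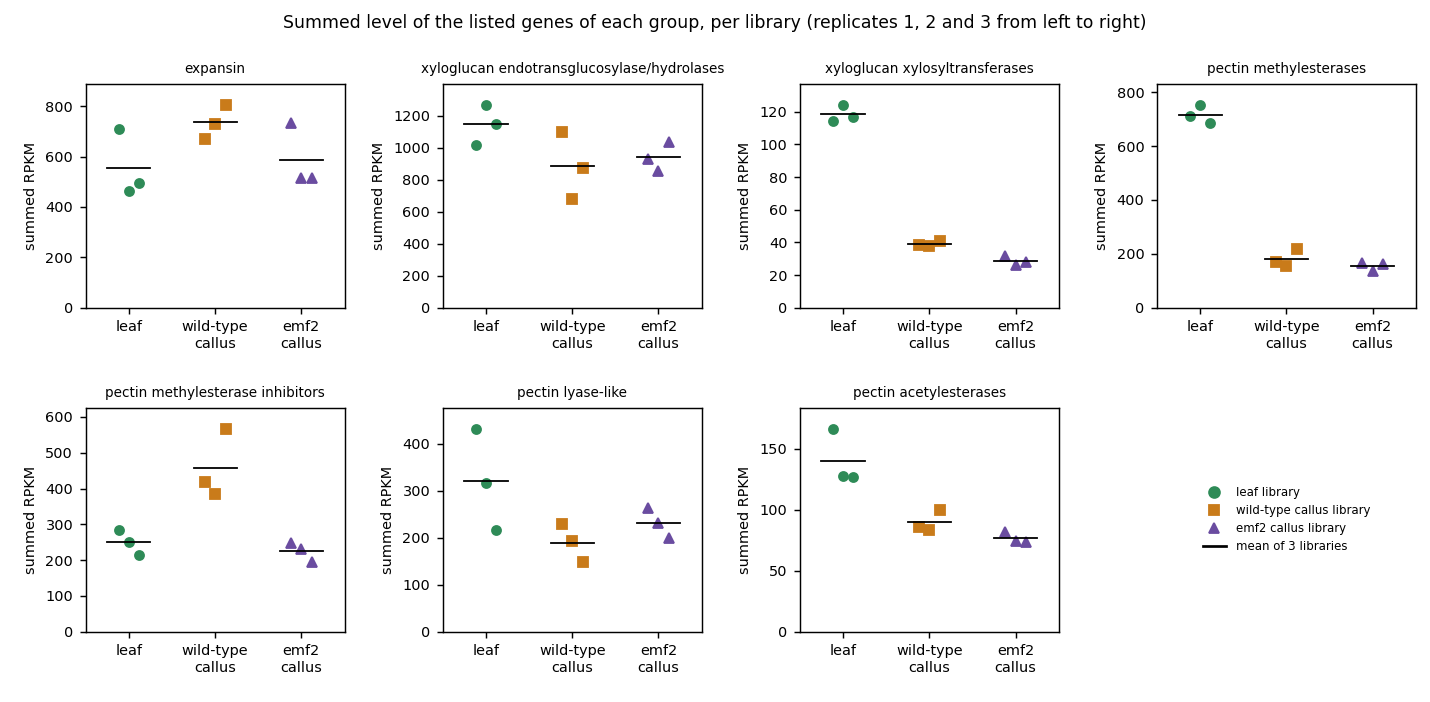
Summed RPKM of the listed genes of each wall gene group in every library (points) with the mean of 3 libraries (bars), at the deposited scaling, on linear axes from 0. The PME enzymes sum to 685 to 754 RPKM in the leaf libraries and 137 to 218 in the callus libraries, while the sum of the PME inhibitors is highest in wild-type callus.

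Members that lie next to each other did not always move together. There were 10 pairs of members with no other protein-coding gene between them. In 3 pairs both genes passed between wild-type callus and leaf, 1 pair in the same direction and 2 in opposite directions. The same count over all neighbouring genes was not made, so this describes these pairs alone. On chromosome 4, XTH24 (14819192 to 14820595), XTH18 (14825757 to 14827211) and XTH19 (14828712 to 14830224) follow each other on 1 strand in TAIR10.1. XTH24 rose, XTH18 fell and XTH19 did not pass (adjusted p = 0.136, log2 fold change 0.38). On chromosome 5, AT5G62350 (25037191 to 25038424) rose, and AT5G62360 (25040540 to 25041504) was listed for leaf alone at 10.8, 4.00 and 22.5. The acetylesterases AT4G19410 and AT4G19420 fell together, and 22.1% of the span of AT4G19410 is shared with another gene. No member had another place in the genome that matched it over 100 bases or more at 95% identity.

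Genes that make the wall polymers, from lists chosen with earlier results known, were described for comparison. Of 11 cellulose synthesis genes listed in both tissues 0 rose and 9 fell (2 and 5 with scaling to the library totals), with a median log2 fold change of -1.22. CESA1, CESA3 and CESA6, the cellulose synthases of the primary wall, had means of 98.4, 103 and 98.4 RPKM in the leaf libraries and 62.1, 51.4 and 34.3 in wild-type callus. Of 9 xyloglucan synthesis genes other than the 3 XXT members 1 rose and 5 fell (4 and 1). CSLC4, the main backbone synthase, fell from a mean of 104 to 40.4, and FUT1, the fucosyltransferase, rose from 5.83 to 13.1. Of 17 pectin synthesis genes 2 rose and 6 fell (11 and 1), among them GAE6, which makes UDP-galacturonate and fell from a mean of 242 to 23.8. Of 6 polygalacturonases only ADPG2, known from abscission, was in a table, with a mean of 37.0 in wild-type callus, with 18.7 for emf2 callus, and it was missing from leaf. Xylem markers, which share CESA4, CESA7 and CESA8 with the cellulose list, summed to 35.6 to 75.7 RPKM in leaf (5 of 5 listed) and 2.56 to 16.9 in wild-type callus (4 of 5), and epidermis markers to 127 to 199 (5 of 5) and 8.37 to 39.1 (2 of 5). Their part in the wall gene differences was not tested.

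The emf2 callus was next compared with wild-type callus. Few genes of any kind passed in limma's test, 16 of 16185 (0.0989%), with 11 higher (0.068%) and 5 lower (0.0309%). At an unadjusted p under 0.05 there were 9.0%. Of the 88 wall genes listed in both calli 0 passed: 0 of 12 expansin, 0 of 21 xyloglucan and 0 of 55 pectin genes. At an unadjusted p under 0.05 there were 2 expansin, 3 xyloglucan and 12 pectin genes. None of the 9 members listed in 1 callus alone passed the bound, which 19.5% of all genes listed for emf2 callus alone and 4.63% of those listed for wild-type callus alone passed.

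AT5G62350, the PME inhibitor of highest level in wild-type callus, came nearest to passing. It was at 201, 171 and 266 RPKM in wild-type callus, with 91.1, 55.3 and 51.9 for emf2 callus, and every emf2 library was below every wild-type library. The log2 fold change was -1.69 (2 standard errors to either side, -2.23 to -1.15) with an adjusted p of 0.0668, and it passed when genes under 5 RPKM were left out (adjusted p = 0.044). AT1G14890, the other abundant inhibitor, was at 157, 159.7 and 249.7 and 105, 125 and 93.5, also without overlap, and did not pass (log2 fold change -0.78, SE 0.22, adjusted p = 0.316). Of the PME enzymes, AT1G02810 was at 18.9, 11.1 and 15.8 and 6.85, 6.35 and 6.08 (log2 fold change -1.10, SE 0.22, adjusted p = 0.141) and PME44 at 3.70, 5.32 and 1.105 and 10.7, 6.04 and 9.75 (log2 fold change 1.28, SE 0.39, adjusted p = 0.351), in opposite directions. Among the lyase-like genes AT1G56710 had every emf2 library above every wild-type library and did not pass (log2 fold change 1.01, SE 0.20, adjusted p = 0.182).

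The xyloglucan genes of lowest unadjusted p were XXT5 (log2 fold change -0.52, adjusted p = 0.205), XTH28 and XTH8. XTH28 was at 29.4, 8.80 and 21.5 in wild-type callus, with 7.85, 6.15 and 4.79 for emf2 callus, with wild-type replicate 2 next to the emf2 libraries (log2 fold change -1.40, SE 0.37, adjusted p = 0.280). Without that library XTH28 and AT1G02810 passed, both lower in emf2 callus, and 121 genes passed in all. Some abundant genes gave narrow enough intervals to bound the difference. All 9 libraries share 1 estimate of the spread where leaf lists a gene, so leaf scatter enters the tests and intervals between calli. XTH24, at 70.4, 120.0 and 326 RPKM over leaf replicates 1 to 3, is an example. For EXPA4 the log2 fold change was -0.20 (-0.71 to 0.32, 2 standard errors to either side), for XTH24 0.40 (-0.60 to 1.39), for XTH11 -0.14 (-0.82 to 0.55) and for PME1 0.08 (-0.21 to 0.36). Differences of 2-fold lie outside the intervals of EXPA4, of XTH11 and of PME1 and inside that of XTH24. A p above the threshold does not show equal levels. Epidermis markers summed to 8.37 to 39.1 RPKM in wild-type callus and to 87.5 to 93.7 in emf2 callus, where 4 of 5 were listed, and their part was not tested.

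**Figure D4:**
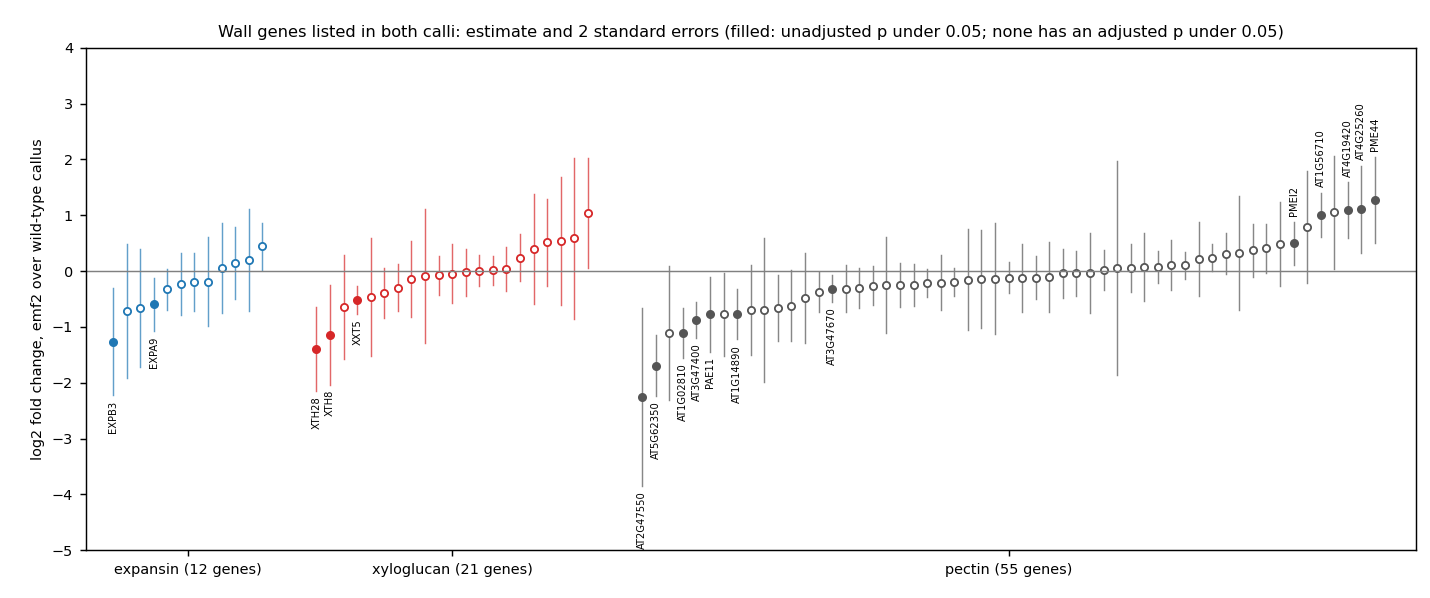
Log2 fold change of emf2 over wild-type callus for the 88 wall genes listed in both, by family and ordered by size, with bars of 2 standard errors to either side; filled points have an unadjusted p under 0.05 and none has an adjusted p under 0.05. AT5G62350 lies at -1.69, below every other pectin gene except AT2G47550.

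The emf2 callus was last compared with leaf, using the same leaf libraries as above, so the calls are not independent of those for wild-type callus. Of all genes listed in both 65.3% passed, 34.1% higher and 31.2% lower, and of the 80 members 14 rose and 31 fell (56.2%). By family, 3 expansin genes rose and 4 fell of 13, 5 xyloglucan genes rose and 6 fell of 18, and 6 pectin genes rose and 21 fell of 49. With scaling to the library totals the counts were 6 and 1, 8 and 5, and 22 and 12, beside 9316 higher and 2462 lower of all 14693 genes. The largest expansin rise was EXPA4 (log2 fold change 3.57, SE 0.26, adjusted p = 8.16e-06), next to 3.77 in wild-type callus, and the largest expansin fall was EXLB1 (log2 fold change -2.69, SE 0.49, adjusted p = 0.00338). XTH24 rose with no overlap between groups (log2 fold change 1.83, SE 0.50, adjusted p = 0.0114). XTH15, at 1.09, 2.37 and 2.23 in leaf and 7.17, 14.5 and 6.74 in emf2 callus, rose as well (log2 fold change 1.81, SE 0.49, adjusted p = 0.0117), while in wild-type callus it was at 7.39, 5.03 and 1.22 and did not pass. A further gene covers 27.8% of the span of XTH15.

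XTH28 fell from leaf to emf2 callus (log2 fold change -1.49, SE 0.37, adjusted p = 0.00775) and EXPA9 fell from 6.03, 6.80 and 8.09 to 3.59, 3.04 and 3.48 (log2 fold change -0.86, SE 0.24, adjusted p = 0.0124). Neither fall passed with scaling to the library totals, where EXPA9 had a log2 fold change of -0.08 (adjusted p = 0.808). Among pectin genes AT1G14890 rose (log2 fold change 3.39, SE 0.22, adjusted p = 5.31e-06), and AT3G49220, AT1G04680, PMEPCRF and AT5G09760 had the largest falls, with log2 fold changes of -4.48, -3.43, -3.03 and -2.79. AT5G62350, which rose in wild-type callus, gave -0.30 in emf2 callus against leaf (adjusted p = 0.358), with emf2 libraries overlapping leaf. With scaling to the library totals it passed as higher in emf2 callus than in leaf. Its difference between the calli is the one given above and did not pass. Of members listed for leaf and not emf2 callus 26 of 30 passed the bound, as did 84.6% of all such genes, and of those listed for emf2 callus and not leaf 8 of 11, against 75.6%. Of the genes missing from both callus tables, XTH6, XTH7 and AT3G62820 had the highest means in leaf, and EXPA5 had the highest among expansins.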

How the data were processed

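The deposited values were RPKM per gene and library, and per the file headers a gene enters 1 of the 3 tables if its mean there exceeds 1 RPKM. Per the submitters' processing notes the tools were TopHat, cutadapt and FastQC, on TAIR10, and the counter of reads is not given in the sources used here. Per the labels' protocols libraries came from the TruSeq RNA V2 kit after 15 cycles of PCR. That kit does not mark strand. Members were found by the words of their description, and all 125 matched the RefSeq TAIR10.1 annotation, which gave coordinates, coding lengths and sequences. On the scale log2(RPKM + 1), limma 3.58.1 in R 4.3.3 made a single fit of all 9 libraries with 1 coefficient per group and a moderated, trended spread. Adjustment was by Benjamini-Hochberg over all genes of a contrast, with a threshold of 0.05. Genes listed for 1 group were tested against log2(1 + 1), with a separate adjustment. Labels call the replicates biological, and the p-values measure the spread between them. Whole reads were recovered from the deposited values for all 18861 genes within 1e-06 reads, and they give counting depth and an alternative scaling to library totals. The members, lists and tests were chosen with earlier results of these data known. Within each family the rule named up to 4 largest passing rises and up to 4 falls without overlap and with a higher mean of 5 RPKM or more, up to 3 highest genes listed for 1 group and past the bound, and the highest gene of each group, and other members were named after their values were seen. Alternatives were a pseudocount of 0.1, a filter at 5 RPKM, quantile normalization, library totals, a replicate block and leaving out each library.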

Additional observations from a re-analysis of the deposited data

How the results depend on the processing

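None of the 738 values of genes named by the rule reversed under the alternatives. Of these, 709 kept their side of the threshold, 25 no longer passed and 4 newly passed. Rises and falls picked for groups without overlap cannot change sign when 1 library is left out, so the choice partly fixed this outcome. Members that the rule did not name turned under scaling to the library totals, as given below. Under scaling to library totals wild-type callus against leaf gave 8 higher and 1 lower expansin genes, 8 higher xyloglucan genes, 23 higher pectin genes, and 9085 higher and 2554 lower genes in all. In emf2 callus against leaf the counts were 6 and 1, 8 higher, 22 and 12, and 9316 and 2462. That scaling raises callus over leaf by 0.92 log2 units in wild-type callus and by 0.95 in emf2 callus. Under it 3 pectin genes that fell in emf2 callus against leaf (PME31, AT3G47670 and AT3G55140) passed as higher, and AT3G55140, AT3G57790, PAE9 and PME5 changed sign without passing in wild-type callus against leaf. The filter at 5 RPKM left 2 higher xyloglucan genes for wild-type callus against leaf and 3 for emf2 callus against leaf, since fewer genes were tested. Leaving out 1 library gave 7 to 11 higher pectin genes in wild-type callus against leaf and 5 to 10 in emf2 callus against leaf, in each case most without leaf replicate 3. For emf2 against wild-type callus the genes higher and lower in all were 11 and 5, and became 32 and 34 with the filter, where 1 pectin gene passed as lower, 26 and 25 with quantile normalization, and 17 and 15 with library totals. Leaving out 1 library gave 3 to 51 higher and 0 to 70 lower, with 0 to 1 xyloglucan and 0 to 1 pectin genes lower, each maximum without wild-type callus replicate 2. The cause was not tested. The replicate numbers did not pair the libraries throughout. Same-numbered deviations correlated at -0.03, -0.03 and 0.11 for wild-type callus with leaf. They correlated at -0.21, 0.18 and 0.61 for emf2 with wild-type callus, and at 0.12, -0.01 and 0.16 for emf2 callus with leaf. Replicate 3 matched its own number best in each comparison, as did replicate 1 for emf2 callus with leaf. What these libraries share was not tested. With the replicate block 8 genes in place of 5 were lower in emf2 than in wild-type callus, no member lost a call, and 3 members gained one in wild-type callus against leaf and 6 in emf2 callus against leaf, PME17 among both. Every member had 15 or more reads in each library that lists it. A level of 1 RPKM stood for fewer reads in the leaf libraries (medians 53.2 to 72.0) than in the callus libraries (109.5 to 156.8). The part of depth was not tested.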
